A study of Homo sapiens with 6 samples.

Results

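The transcripts described here come from 10 genes whose enzymes make fatty acids and alter their chains: ACLY, ACSS2, ACACA, FASN, SCD, FADS1, FADS2, ELOVL1, ELOVL5 and ELOVL6. Their probes were taken by the gene symbol that the array's annotation carries, for genes picked by their role with earlier results of these data known. The array held 18 probes for these 10 genes, out of 47231 probes with 31334 different gene symbols. The cells were U2OS, a human osteosarcoma line, in 2 groups of 3 arrays each: cells with a stable knockdown of TUSC4 by shRNA, and cells with a control shRNA, which the labels also call parental. By their titles, both groups carried an shRNA. The labels name neither the shRNA sequence nor its vector, and do not say whether a line is 1 clone or whether the 3 samples of a group were grown apart. The p-values therefore measure only how these samples scatter, and that scatter may be technical. The 6 samples sat in consecutive places of the same chip with the groups side by side, so place and group cannot be told apart.

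Fatty acids are built in the cytosol from acetyl-CoA. ACLY makes acetyl-CoA from citrate and ACSS2 makes it from acetate. ACACA carboxylates acetyl-CoA to malonyl-CoA, the committed step, and FASN joins malonyl units into palmitate. SCD then places the first double bond in saturated chains, and FADS1 and FADS2 add double bonds to polyunsaturated chains. ELOVL enzymes run the condensing step that lengthens chains: ELOVL6 acts mainly on palmitate, ELOVL5 on polyunsaturated chains and ELOVL1 on very long saturated ones. Transcription factors of the SREBP family, which INSIG proteins hold in the endoplasmic reticulum when sterols are plentiful, switch on most of these genes, and the growth kinase mTORC1 favours SREBP activity. TUSC4, now named NPRL2, belongs to GATOR1, which restrains mTORC1 when amino acids are short.

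The start regions of the 3 genes with the largest falls, and that of FADS2, the neighbour of FADS1, are printed to show what lies at the starts of genes that moved together and of a neighbour whose change did not pass. They are RefSeq windows (build GRCh38.p14) of 300 bases, the last 50 of them after a transcript start, read along the gene. Capitals mark matches, on either strand, to the NF-Y box (CCAAT), the SP1 box (GGGCGG), the E-box (CACGTG) and the core of a sterol regulatory element (TCACNCCAC). No match overlaps another in these 4 windows. SCD lies at chr10:100346983-100347282 (+ strand), FADS1 at chr11:61816954-61817253 (- strand), FADS2 at chr11:61816154-61816453 (+ strand, the second of its 2 windows) and ELOVL5 at chr6:53348901-53349200 (- strand).
SCD: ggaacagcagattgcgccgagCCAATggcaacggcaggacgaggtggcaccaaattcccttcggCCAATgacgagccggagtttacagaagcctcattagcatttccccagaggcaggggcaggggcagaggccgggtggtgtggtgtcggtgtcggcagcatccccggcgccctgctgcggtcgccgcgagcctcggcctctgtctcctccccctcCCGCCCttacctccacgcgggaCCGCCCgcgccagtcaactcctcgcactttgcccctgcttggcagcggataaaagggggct
FADS1: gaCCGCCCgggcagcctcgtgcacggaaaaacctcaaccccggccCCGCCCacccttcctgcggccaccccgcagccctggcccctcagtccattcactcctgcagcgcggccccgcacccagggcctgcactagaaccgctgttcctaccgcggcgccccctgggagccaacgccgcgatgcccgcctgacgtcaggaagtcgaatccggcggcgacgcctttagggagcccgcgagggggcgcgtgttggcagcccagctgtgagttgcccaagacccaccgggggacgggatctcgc
FADS2: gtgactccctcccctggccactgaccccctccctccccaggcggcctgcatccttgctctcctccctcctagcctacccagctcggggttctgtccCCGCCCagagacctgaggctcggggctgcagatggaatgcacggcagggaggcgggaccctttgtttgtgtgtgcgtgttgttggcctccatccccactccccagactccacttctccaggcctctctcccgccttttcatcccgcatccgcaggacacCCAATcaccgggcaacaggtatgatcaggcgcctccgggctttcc
ELOVL5: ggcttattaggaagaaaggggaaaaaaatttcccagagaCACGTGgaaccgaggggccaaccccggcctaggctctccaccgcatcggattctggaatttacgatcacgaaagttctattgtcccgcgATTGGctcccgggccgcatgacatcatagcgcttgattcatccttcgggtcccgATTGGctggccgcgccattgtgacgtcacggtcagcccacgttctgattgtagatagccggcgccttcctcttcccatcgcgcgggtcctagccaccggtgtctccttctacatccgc

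Windows were matched for 9 of the 10 genes, all but FASN, with 14 windows in all because some genes have several starts. The NF-Y box was in 9 of the 14 windows and in 34.6% of the 35116 windows of all genes. The SP1 box was in 11 of 14, against 44.95% of all windows. The ACLY windows overlap, as do those of FADS2, so the 14 are not separate stretches, and the ACLY matches are counted in both of its windows. By gene, the NF-Y box was in 7 of 9 and the SP1 box in 8 of 9, for which no share over all genes was taken. The E-box was in 1 of 14, that of ELOVL5, against 7.26% of all windows. The core of the sterol element was in none of the 14 and in 1.13% of all windows, which says only that these letters are not in these stretches. SCD holds 2 NF-Y boxes and ELOVL5 holds 2, while the FADS1 window holds none. The printed FADS2 window holds an NF-Y box and an SP1 box, and the other FADS2 window, not printed, holds no match. FADS1 and FADS2 are read from opposite strands, with the FADS1 start 599 and 800 bases from the 2 starts of FADS2. The FADS1 start lies at the higher coordinate, so from these starts the genes are read toward each other.

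TUSC4 was lower on every knockdown array, with average bead signals of 366, 345 and 481 with the TUSC4 shRNA, against 1105, 943 and 977 with the control shRNA. Its log2 fold change after normalization was -1.18 ± 0.10 (SE, limma adjusted p = 7.57e-07). The number of arrays limits the precision, and 20378 to 21485 probes per array lay above an estimated background. Log2 intensities correlated at 0.991 to 0.996 between arrays of 1 group and at 0.979 to 0.984 between groups. Of 9 osteoblast and mesenchymal markers 4 were above background on all 6 arrays: VIM, SPARC, COL1A1 and SPP1. COL1A2 was above background on only 1 array, a control, and FN1 on only 1, with the TUSC4 shRNA, and neither was tested. BGLAP and ALPL were above background on 2 of 3 TUSC4 shRNA arrays and did not pass. By the brightest probe VIM and SPARC did not pass the test, COL1A1 fell (-0.96) and SPP1 rose (0.98). RUNX2 fell by its brightest probe (-0.68), which was above background on 2 of 3 TUSC4 shRNA arrays, but its other tested probe was at -0.01. The summed signal of the 9, most of it from VIM, was 13870 to 16205 with the TUSC4 shRNA and 15333 to 15885 with the control shRNA. Of 8 adipocyte markers, PLIN1 and FABP4 were above background on no array, and LEP, LPL, CFD and PPARG on all 6. LEP (0.65) and LPL (0.58) rose, CFD (-0.66) fell and PPARG did not pass, while the summed signal, in which these opposite changes offset each other, was 2480 to 3271 with the TUSC4 shRNA and 2680 to 3299 with the control shRNA. Of 6 epithelial markers CDH1 and KRT19 were above background on no array, and KRT8, KRT18 and EPCAM on all 6. KRT8 fell (-0.69) and EPCAM did not pass. KRT18 fell by its brightest probe (-0.31, limma adjusted p = 0.0435), but its other tested probe was at 0.04. The summed epithelial signal was 1236 to 1354 with the TUSC4 shRNA and 1739 to 1994 with the control shRNA. Of 5 hepatocyte markers APOA1, TTR and APOB were above background on no array (sum of the 5 1054 to 1108 with the TUSC4 shRNA, 859 to 912 with the control shRNA). SERPINA1 and ALB were above background on all 6 arrays, SERPINA1 rose (1.12, limma adjusted p = 1.2e-06) and ALB did not pass. The part of these levels in the results was not tested. Within this cell line, fewer cells that express a marker and less of its RNA per cell cannot be told apart.

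SCD, FADS1, ELOVL5 and ACSS2 fell in the TUSC4 knockdown, and no member rose. SCD fell to 49.1% of its control intensity, FADS1 to 56.9%, ELOVL5 to 69.8% and ACSS2 to 79.0%, each with the added offset of 50 included. The other 6 genes did not pass the test: ACLY, ACACA, FASN, FADS2, ELOVL1 and ELOVL6. The count is thus 4 of 10 genes lower by the brightest probe, against 13.2% of the 15300 genes tested, and 0 of 10 higher, against 12.8%. By single probes, 15 of the 18 lay above background on at least 3 arrays and were tested. Of these, 5 were lower and 0 higher, against 12.5% and 11.8% of all 20657 probes tested, of which 24.3% changed in either direction. The median log2 fold change was -0.29 for the 10 genes and 0.00 for all genes. A change was called at a limma adjusted p under 0.05 over all tested probes, and a negative fold change means a lower value with the TUSC4 shRNA.

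The calls depend on how the arrays were scaled to each other. With quantile normalization 2589 of all probes were lower and 2437 higher. Median scaling gave 4418 and 744, and no normalization gave 4488 and 463, while the median of all probes moved to -0.11 and -0.15 on the log2 scale. Under both of these scalings 6 of the 10 genes were lower, ACLY and FASN joining the other 4, and none was higher. Measured from the median of all probes, SCD was at -1.03 with quantile normalization, -1.10 with median scaling and -1.10 without normalization. On the same footing FASN was at -0.24, -0.35 and -0.35, and ELOVL6 was at 0.08, -0.02 and -0.02.

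**Figure D1:**
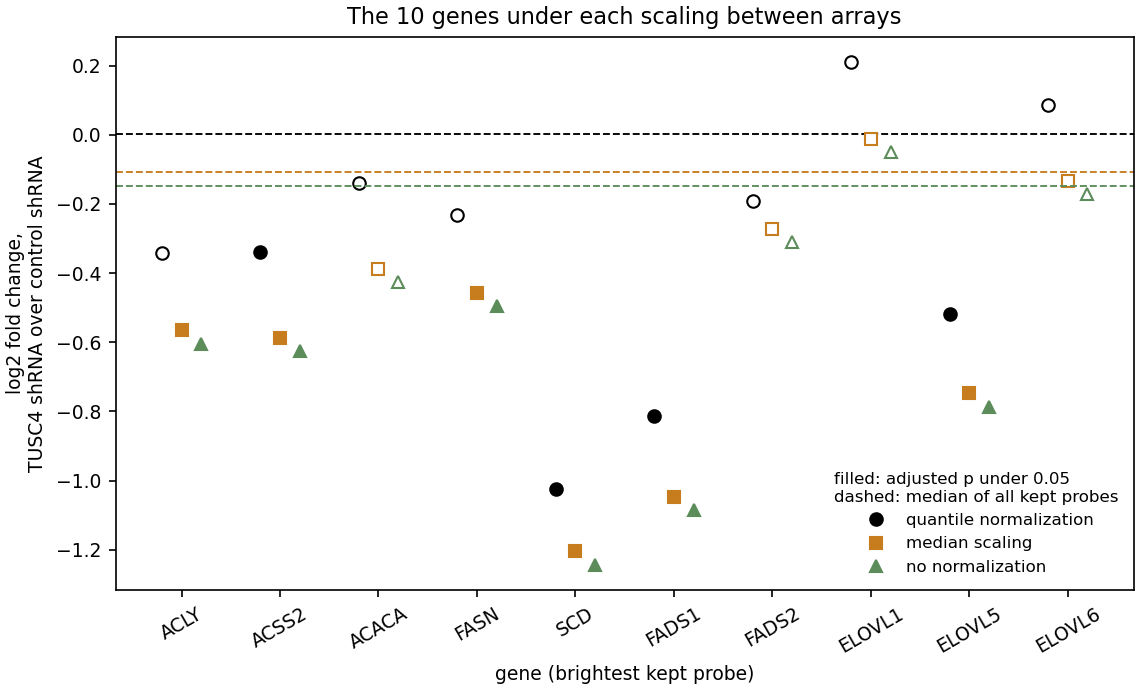
Log2 fold change (TUSC4 shRNA over control shRNA, vertical axis) of the brightest probe of each of the 10 genes under quantile normalization, median scaling and no normalization, with filled symbols where the limma adjusted p was under 0.05 and dashed lines at the median of all tested probes. SCD, FADS1, ELOVL5 and ACSS2 are filled under all 3, ACLY and FASN under 2, and ELOVL1 and ELOVL6 lie above 0 with quantile normalization only.

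The desaturases held the largest falls. The average signal of SCD was 1343, 1203 and 1385 on the TUSC4 shRNA arrays, against 3890, 2337 and 3089 on the control arrays. Every knockdown array lay below every control array, while the controls differed among themselves, with control replicate 2 the dimmest. SCD had a log2 fold change of -1.03 ± 0.13 (SE, 95% interval -1.29 to -0.76, limma adjusted p = 2.67e-05). Among the 15300 genes, 98 (0.641%) had a lower value. The call held in all 16 alternative fits, with log2 fold changes of -1.24 to -0.91.

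FADS1 had signals of 429, 413 and 577 with the TUSC4 shRNA, against 1048, 902 and 895 with the control shRNA. The groups did not overlap, and TUSC4 replicate 3 was the nearest to the controls. Its log2 fold change was -0.81 ± 0.10 (95% interval -1.03 to -0.60, limma adjusted p = 3.39e-05), which 216 genes (1.41%) undercut. It too was called in all 16 alternatives, at -1.09 to -0.74. FADS2, the enzyme that starts the same polyunsaturated route, was measured by a dim probe with signals of 149, 122 and 140 with the TUSC4 shRNA, against 181, 147 and 161 with the control shRNA. Its groups overlapped. The log2 fold change of FADS2 was -0.19 (95% interval -0.43 to 0.05, limma adjusted p = 0.254), and the offset shrinks changes of so dim a probe. With an offset of 16 the FADS2 value was -0.29 and did not pass either (limma adjusted p = 0.228). Without background correction it was -0.13, and with the authors' log2 values -0.10.

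**Figure D2:**
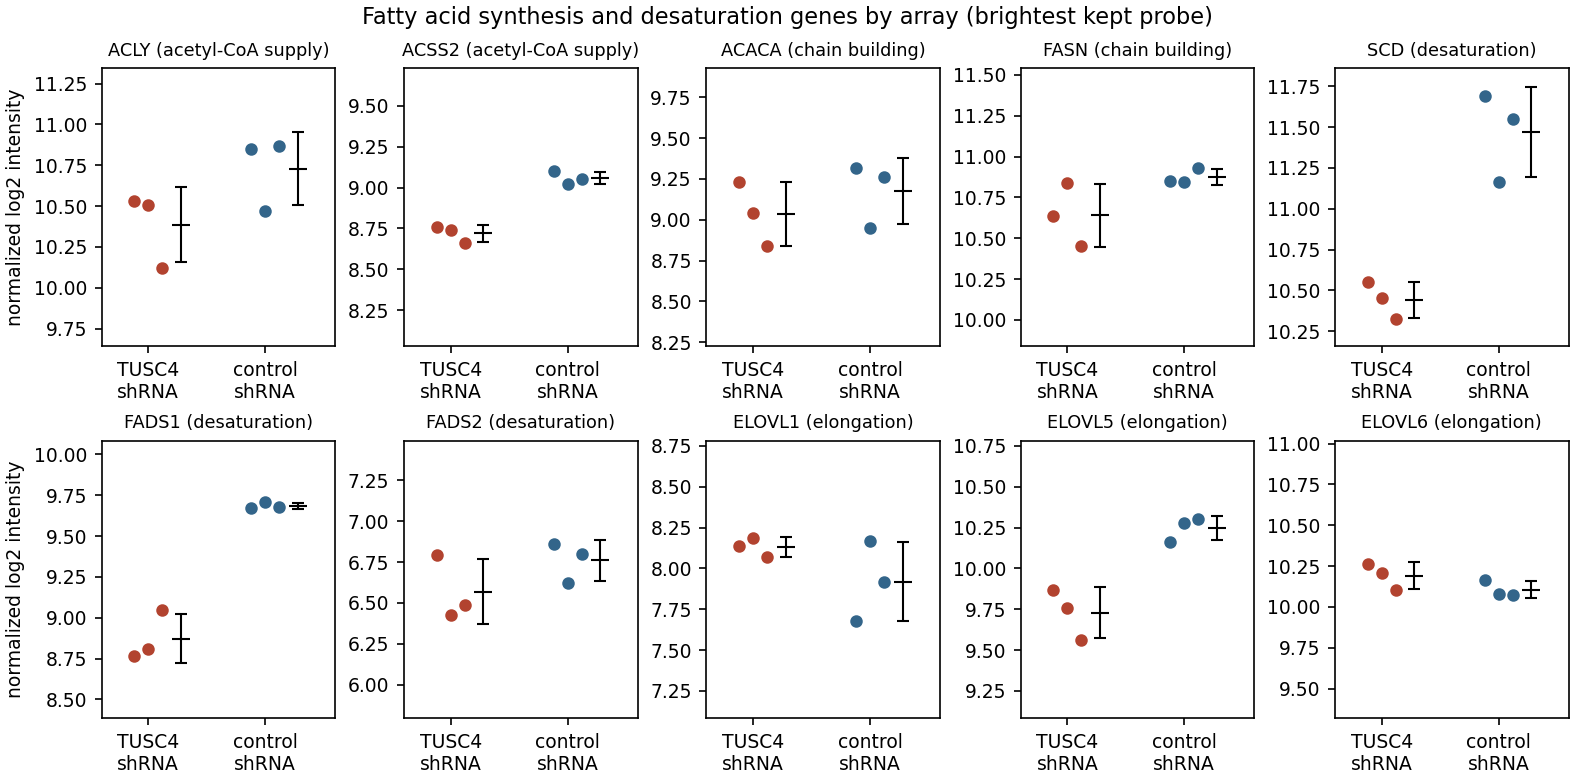
Normalized log2 intensity (vertical axis, every panel spanning the same 1.7 log2 units) of the brightest probe of each of the 10 genes, with the 3 TUSC4 shRNA arrays left and the 3 control shRNA arrays right, and the mean with its SD beside each group. SCD, FADS1, ELOVL5, ACSS2 and FASN show knockdown points that all lie below the control points.

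Of the elongases, ELOVL5 fell. Its signals were 859, 761 and 808 with the TUSC4 shRNA, against 1443, 1305 and 1351 with the control shRNA, with no overlap. Its log2 fold change was -0.52 ± 0.10 (95% interval -0.74 to -0.30, limma adjusted p = 0.00176), and the call held in all 16 alternatives. Genes around ELOVL5 were lower as well: of the 50 measured genes nearest to it on its chromosome, 21 were lower and 4 higher, with a median of -0.20. ELOVL5 lay 0.32 below that median, and how much of its fall goes with the region was not tested.

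ELOVL6 did not pass by either of its probes. The brighter one read 1117, 1030 and 1173 with the TUSC4 shRNA, against 1447, 1140 and 1166 with the control shRNA, and the groups overlapped. The log2 fold changes of ELOVL6 were 0.09 (95% interval -0.12 to 0.29) and 0.03 (-0.22 to 0.28). ELOVL1 had signals of 297, 286 and 312 with the TUSC4 shRNA, against 296, 338 and 299 with the control shRNA. These raw signals overlap. The log2 fold change was 0.21 with quantile normalization (95% interval -0.04 to 0.46, limma adjusted p = 0.217) and -0.01 with median scaling. The 50 nearest measured genes of ELOVL1 had a median of 0.19, with 15 higher and 0 lower.

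For acetyl-CoA supply, ACSS2 fell by its brightest probe, which read 427, 395 and 451 with the TUSC4 shRNA, against 727, 580 and 603 with the control shRNA. The groups did not overlap. The log2 fold change was -0.34 ± 0.09 (limma adjusted p = 0.0148), a call lost without control replicate 1 (-0.32, limma adjusted p = 0.0659). The other tested ACSS2 probes gave -0.26 (limma adjusted p = 0.0694) and -0.42 (limma adjusted p = 0.0128), and the groups did not overlap by either of them. The second of these exceeded background on all control arrays but on 2 of 3 with the TUSC4 shRNA, and its call was lost without TUSC4 replicate 1 (limma adjusted p = 0.0630) or control replicate 2 (0.0721). The remaining ACSS2 probes, 2 in number, were above background on no array.

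ACLY read 1329, 1248 and 1190 by its brightest probe with the TUSC4 shRNA, against 2270, 1511 and 1957 with the control shRNA. The raw signals did not overlap, but the normalized values did, with control replicate 2 at the level of the knockdown arrays. Its log2 fold change was -0.34 ± 0.13 (95% interval -0.62 to -0.07), as large as that of ACSS2 with a wider spread, and the limma adjusted p was 0.0676. ACLY passed without control replicate 2 (-0.47, limma adjusted p = 0.0212) and was at -0.21 without TUSC4 replicate 3 (limma adjusted p = 0.236). The other ACLY probe gave -0.11 (95% interval -0.34 to 0.11). The 50 nearest measured genes of ACLY had a median of -0.13, with 12 lower and 2 higher.

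The chain-building enzymes did not pass. FASN read 1412, 1557 and 1483 with the TUSC4 shRNA, against 2269, 1925 and 2052 with the control shRNA. Its groups did not overlap before or after normalization, though TUSC4 replicate 2, at -0.04 from the control mean on the log2 scale, nearly met control replicate 2 at -0.03. The log2 fold change of FASN, -0.23 (95% interval -0.46 to -0.0028), had a limma adjusted p of 0.136. FASN passed without TUSC4 replicate 2 (-0.33, limma adjusted p = 0.0479) as well as under the 2 other scalings, while without TUSC4 replicate 3 it was at -0.14 (limma adjusted p = 0.381). ACACA read 572, 475 and 503 with the TUSC4 shRNA, against 835, 551 and 685 with the control shRNA, and its groups overlapped. Its tested probes gave -0.14 (95% interval -0.40 to 0.12) and -0.15 (-0.43 to 0.13), and the remaining ACACA probe was above background on no array.

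**Figure D3:**
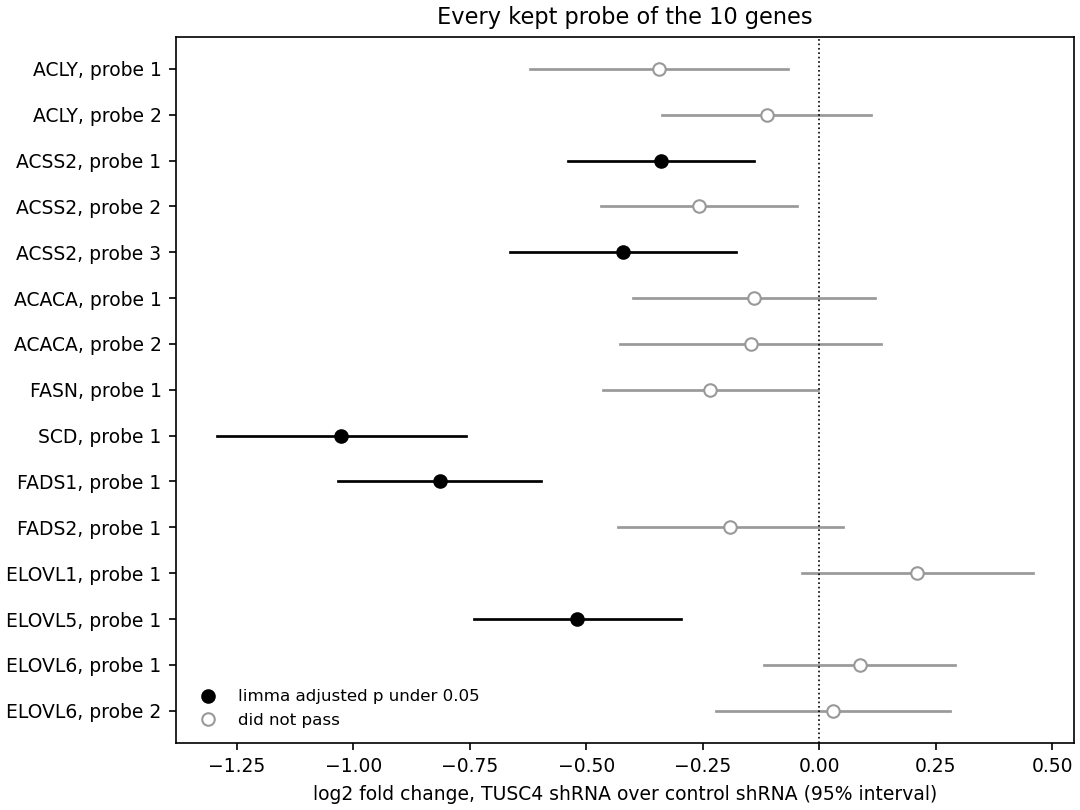
Log2 fold change (TUSC4 shRNA over control shRNA, horizontal axis) with its 95% interval from limma for each of the 15 tested probes, numbered within a gene from the brightest, filled where the adjusted p was under 0.05. The 5 filled probes, those of SCD, FADS1 and ELOVL5 and 2 of ACSS2, lie at -1.03 to -0.34.

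Probes of a gene agreed in sign for ACLY, ACSS2, ACACA and ELOVL6 with quantile normalization of all 6 arrays. Normalized values of the groups did not overlap, with the knockdown lower, for 5 of the 10 genes (SCD, FADS1, ELOVL5, ACSS2 and FASN), against 20.5% of all genes. In order of log2 fold change the genes ran SCD, FADS1, ELOVL5, ACLY, ACSS2, FASN, FADS2, ACACA, ELOVL6 and ELOVL1. The intervals of SCD and FADS1 overlap, as do those of any neighbours in that order.

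The arrays of a group did not move evenly. Averaged over the 10 genes, the log2 value lay at -0.25, -0.31 and -0.44 from the control mean on TUSC4 replicates 1, 2 and 3, against 0.03, -0.07 and 0.04 on the control replicates. TUSC4 replicate 3 was the lowest knockdown array for 8 of the 10 genes, but the highest for FADS1. Control replicate 2 was the lowest control array for 6 of 10, SCD, ACLY and ACACA among them, and the highest for ELOVL1 and FADS1. FADS1 was the steadiest control value, within 0.02 of its mean on every control array, and SCD the most variable, at 0.22, -0.31 and 0.08.

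**Figure D4:**
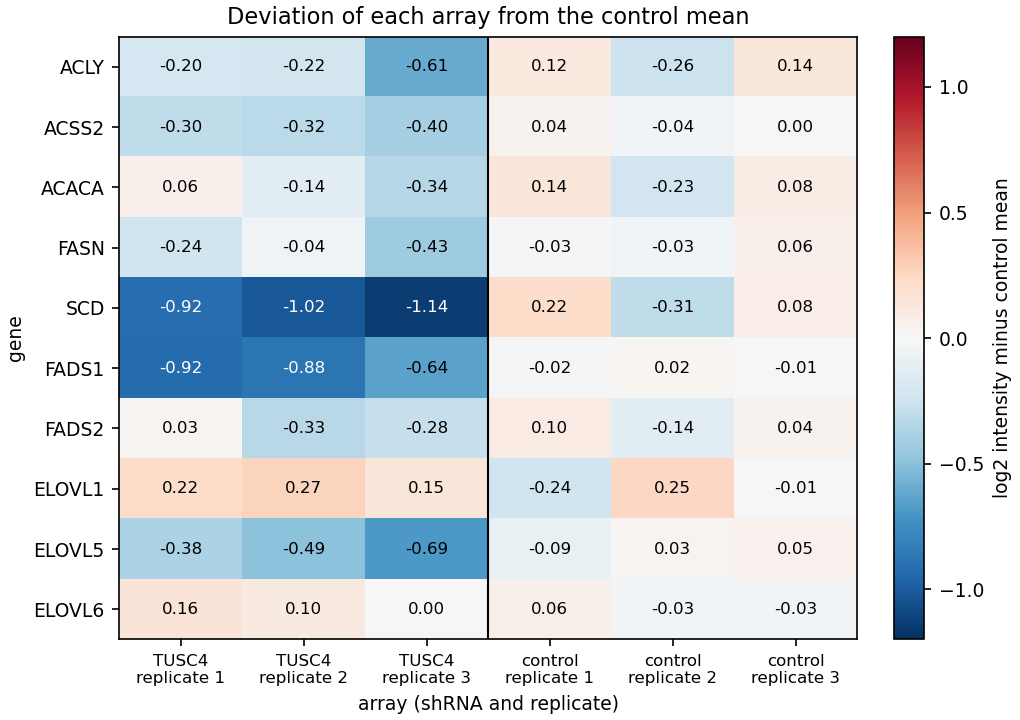
Difference in log2 intensity between each array (columns, TUSC4 shRNA left and control shRNA right) and the control mean for each of the 10 genes (rows), as colour and number. SCD and FADS1 are at -1.14 to -0.64 on every knockdown array, while ACACA and FADS2 are at 0.06 and 0.03 on TUSC4 replicate 1 and below the control mean on the other knockdown arrays.

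Genes around the other members were read in the same way. The 50 nearest measured genes had a median of 0.01 for SCD, -0.03 for FADS1 and FADS2 and -0.02 for ACSS2, with 3 to 5 of 50 lower and 4 or 5 higher. Less its neighbours' median, SCD was at -1.03, FADS1 at -0.79 and ACSS2 at -0.32. Neighbours of FASN had a median of -0.03, those of ACACA -0.06 and those of ELOVL6 0.10.

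Genes that act next to the 10 were read from lists of lipid metabolism, each gene by its brightest probe. Where a called list gene had other tested probes, these had the same sign, some with smaller and some with larger changes. The shares to set beside the count of each list are 13.2% lower and 12.8% higher among all genes. Of 8 tested genes of the elongation cycle outside the 10, 1 was higher and 0 lower, with a median of 0.08. The higher one was HACD4, PTPLAD2 on the array (0.60 ± 0.10, limma adjusted p = 0.000248), a member of the dehydratase family of that cycle. Median scaling called 3 of the 8 lower and 1 higher, where it called 4418 of all 20657 probes lower and 744 higher. Of 9 other synthase and desaturase genes 1 was lower and 0 higher. The lower one was HSD17B8, part of the mitochondrial fatty acid synthesis machinery (-1.43 ± 0.12, limma adjusted p = 8.10e-07). SCD5, the second human stearoyl-CoA desaturase, was at -0.02 and FADS3, another gene of the FADS cluster, at -0.03, and neither passed; both were named after their values were seen.

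Enzymes that supply citrate and NADPH went both ways, with 3 of 10 lower and 2 higher, but 1 lower and 1 higher without control replicate 3. The citrate synthase gene CS was at -0.43 (limma adjusted p = 0.00784), the NADPH-producing isocitrate dehydrogenase gene IDH1 at -0.35 and the aconitase gene ACO1 at -0.36. The malic enzyme genes ME2 and ME1 were higher by 0.44 and 0.30, though neither passed with median scaling (0.20 and 0.06). Of the 16 alternatives, ACO1 lost its call in 5, ME1 in 8 and IDH1 in 2. Among 10 acyl-CoA activation and binding genes 2 were lower and 1 higher, a count that lost all its calls without TUSC4 replicate 2, control replicate 1 or control replicate 3. The long-chain acyl-CoA synthetase genes ACSL4 and ACSL3 were at -0.39 and -0.30 and the thioesterase gene ACOT7 was at 0.29. Their other tested probes gave smaller changes: -0.12 for ACSL4, -0.19 and -0.19 for ACSL3 and 0.20 for ACOT7. ACSL4 lost its call in 4 of the 16 alternatives, ACSL3 in 8 and ACOT7 in 11.

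Among 23 tested genes that control lipogenesis 4 were lower and 2 higher, against 13.2% and 12.8% of all genes. INSIG1, a target of SREBP as well as its brake, read 229 on average with the TUSC4 shRNA and 634 with the control shRNA (log2 fold change -1.40 ± 0.11, limma adjusted p = 3.40e-07). INSIG2 was at -0.47, and the AMPK subunit genes PRKAG2 and PRKAA1 were at -0.42 and -0.37, the last losing its call in 4 of 16 alternatives. Another AMPK subunit gene, PRKAB1, was higher by 0.49, as was MBTPS1, a protease that cuts SREBPs, by 0.45. Neither passed with median scaling (0.30 and 0.20), and the other tested MBTPS1 probe was at 0.19 with quantile normalization. Transcripts of the SREBPs themselves, named after their values were seen, did not pass: SREBF1 was at 0.05, SREBF2, by a dim probe, at -0.01, and their escort SCAP at 0.15.

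In glycerolipid assembly and storage 5 of 16 genes were higher and 2 lower. The lipid droplet coat gene PLIN2 was higher by 0.83 ± 0.10 (limma adjusted p = 3.24e-05) and the acyltransferase gene MBOAT7 by 0.71 ± 0.09 (limma adjusted p = 5.12e-05), and both calls held in all 16 alternatives. AGPAT9 was higher by 0.55, AGPAT2 by 0.42 and DGAT1 by 0.34, all of them acyltransferase genes of glycerolipid synthesis, and these calls were lost with median scaling. PLIN3, another droplet coat gene, was at -0.39, and AGPAT4, named to complete the count, was lower too. Of 23 fatty acid oxidation genes 10 were higher and 0 lower with quantile normalization, but 3 higher and 1 lower with median scaling and 2 higher and 3 lower without normalization. Over all 20657 probes, median scaling called 744 higher and 4418 lower, and no normalization called 463 higher and 4488 lower. Without TUSC4 replicate 2, 6 of the oxidation genes were higher and 0 lower. The carnitine palmitoyltransferase gene CPT2 was higher by 0.75 ± 0.10 (limma adjusted p = 6.15e-05) and was called in all 16 alternatives. The thiolase gene ACAA2 was higher by 0.62, a call lost without normalization (0.35, limma adjusted p = 0.0978). The malonyl-CoA decarboxylase gene MLYCD, counted among the 10, entered the test only through the knockdown arrays: its average signal was 151 with the TUSC4 shRNA and 123 with the control shRNA, where no array put it above background. Its call is therefore not used here, which leaves 9 higher. The oxidation counts given above for the other fits also include MLYCD. SLC25A20, ACOX3 and HADH were higher by 0.50, 0.42 and 0.38, calls that median scaling ended. Across these 7 lists 21 of 99 genes were higher and 12 lower, with a median of 0.03, against 12.8% higher and 13.2% lower among all genes. The 21 still include MLYCD, so this total is not free of a gene that entered the test only through the knockdown arrays.

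**Figure D5:**
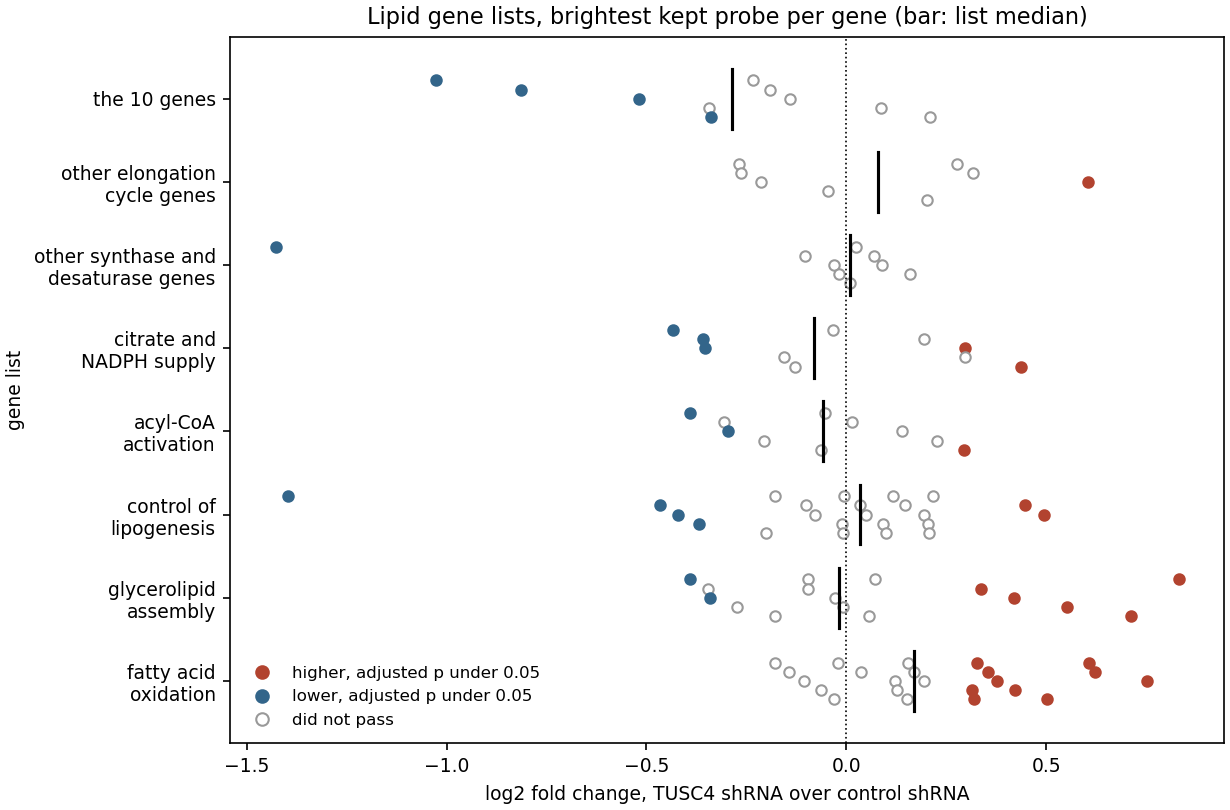
Log2 fold change (TUSC4 shRNA over control shRNA, horizontal axis) of every tested gene in the 10 members and the 7 other lipid lists (rows), filled where the limma adjusted p was under 0.05, with a bar at each list's median. The 10 genes have a median of -0.29 with filled points below 0 only, and fatty acid oxidation has a median of 0.17 with filled points above 0 only under quantile normalization. The filled oxidation points include MLYCD, whose call is not used.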

How the data were processed

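Biotin-labelled RNA of 6 samples was read on Illumina expression arrays. The deposited intensity values are the average bead signal of each probe, not normalized between arrays, per the file headers. BeadStudio is named in the submitters' processing notes; its version and settings are not stated there. The authors' processed log2 values, deposited for the same arrays, share 1 distribution with a median of 6.89, with the method not given in the sources used here; they served as an alternative.

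Starting from the intensity, limma (version 3.58.1, R 4.3.3) corrected the background by normexp with an offset of 50, quantile normalization followed, and log2 was taken. With no detection p-values at hand, background on an array was put at the mode of log2 signal (density bandwidth 0.05) with the SD of the probes under it. Probes with a one-sided normal p under 0.05 on 3 or more arrays were kept, 20657 of 47231. Every kept probe was fitted with lmFit and eBayes without covariates, with Benjamini-Hochberg adjustment over all of them. The fit was tested on simulated data. The members and lists were chosen with earlier results of these data known. Named are all members, up to 6 called genes per list and TUSC4. List genes were matched by symbol, older symbol or RefSeq synonym, 116 of 116 in the 7 other lists. SCAP, SREBF1, SREBF2, SCD5, FADS3 and AGPAT4 fall outside that rule. Alternatives were other scalings, offset 16, no background correction, the authors' values, other filters and probe rules, a replicate block and leaving out each array. Whether the replicate numbers pair the samples could not be settled. One list of cell type markers is not reported here.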

Additional observations from a re-analysis of the deposited data

How the results depend on the processing

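SCD, FADS1 and ELOVL5 kept their direction and their call in all 16 alternatives, and ACSS2 by its brightest probe in 15. The number of member probes called, 5, became 8 with median scaling and 8 without normalization, and was 4 to 6 when single arrays were left out. Members called by the brightest probe numbered 3 to 5 when single arrays were left out, and all changed probes 3517 to 5033. The sign turned with median scaling and without normalization for ELOVL1 (-0.011 and -0.050), for ELOVL6 by its brighter probe (-0.13 and -0.17) and its other probe (-0.22 and -0.25), for SCAP (-0.079 and -0.12) and for SREBF1 (-0.19 and -0.23), none of which passed the test under any of these fits, and the cause was not tested. Leaving out single arrays turned the sign of the second ACACA probe (range -0.26 to 0.0024), the second ELOVL6 probe (-0.060 to 0.15), SREBF1 (-0.067 to 0.17) and SREBF2 (-0.073 to 0.071). With the replicate number as a block, 4954 probes changed, 5 of them member probes, and 4 members were called. Deviations of same-numbered arrays correlated at 0.07, 0.08 and -0.09, within the range of -0.16 to 0.11 for differently numbered arrays. So few arrays cannot show whether the numbers pair the samples. Among the lists, the oxidation count of 10, MLYCD included, became 6 with an offset of 16, 5 without normalization and 4 with median scaling. The oxidation count was 6 to 10 when single arrays were left out. The citrate and NADPH count of 5 was 2 to 5 and the acyl-CoA activation count of 3 was 0 to 3 when single arrays were left out. FADS2 and SREBF2 lay near background, where the offset compresses differences.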
